A study of Homo sapiens with 8 samples.

Results

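Translation initiation and elongation factors were followed in BJ-HRAS cells, a line of human skin fibroblasts, by ribosome profiling, in which mRNA fragments shielded by ribosomes are sequenced. The members were all genes whose name begins with EIF1 to EIF6, EEF1, EEF2 or EEFS, leaving out names that contain AK or KMT. This name rule found 52 of the 10685 genes listed both without and with 4-hydroxytamoxifen (4-OHT), and EIF4E3 was listed only without it. The 52 were 4 genes of eIF1 and eIF1A, 5 of eIF2, 4 of eIF2B, 12 of eIF3, 13 of eIF4, 5 of eIF5, 7 elongation factor genes, the kinase EEF2K, and EIF1AD, which shares part of its name with EIF1A. The names EIF2D, EIF2B5, EIF3CL, EIF3E, EIF4A2, EIF4E1B, EIF6 and EEF1D had no row here and were not analysed here.

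There were 4 groups of 2 libraries each. Wild-type (WT) BJ-HRAS clones 15 and 54 and SNORA13 knockout clones 66 and 69 were each profiled untreated and again after 100 nM 4-OHT for 7 days. SNORA13 is a small nucleolar RNA (snoRNA), and the series title links it to ribosome biogenesis and senescence. HRAS is a small GTPase of growth signalling, and its oncogenic form can push fibroblasts into senescence. 4-OHT is a tamoxifen derivative that activates proteins carrying a modified estrogen receptor domain. The labels do not say how 4-OHT acts in these cells and name no solvent control. All groups share the BJ-HRAS background. A replicate is a clone, so genotype and clone cannot be told apart, and libraries without and with 4-OHT came in separate tables, so 4-OHT and table cannot be told apart.

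Values are RPKM (reads scaled to gene length and library depth) over the whole span of a gene, introns included, so levels of different genes are not compared. Reads behind each value were recovered from the values, and gave 790286 to 1710505 reads per library without 4-OHT and 190618 to 1685419 with it. Knockout clone 66 with 4-OHT had the fewest reads, and 3169 of its 11079 genes were listed at 0. All 10 fibroblast markers were listed, and they took 5.91% to 7.66% of the reads without 4-OHT and 2.40% to 2.88% with it. That shift moves with 4-OHT, and its part in the results below was not tested. Without matched RNA-seq, more mRNA and more ribosomes per mRNA cannot be told apart. The deleted snoRNA was not analysed here, so the labels were not tested against it.

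Initiation begins when eIF2 carries the initiator tRNA to the small ribosomal subunit, helped by eIF1, eIF1A and the large scaffold eIF3. The eIF4 factors bring the mRNA: eIF4E holds its cap, eIF4G is the scaffold and eIF4A unwinds it. eIF2B recharges eIF2 with GTP, and eIF5 and eIF5B act in start codon recognition and subunit joining. In elongation eEF1A delivers tRNAs, the eEF1B subunits recharge eEF1A, and eEF2 moves the ribosome along. Many mRNAs of the translation machinery begin with a C followed by a run of pyrimidines, the terminal oligopyrimidine tract, through which mTORC1 signalling controls their translation.

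The start sites are shown because these genes are known for that tract, and because its presence can be set beside the footprints. RefSeq promoters (GRCh38.p14) were matched for 46 members. EEF1A2, EIF2S2, EIF3A, EIF3G, EIF3H, EIF3L and EIF4EBP1 were not among them. The motif searched was a C at an annotated start followed by at least 4 more C or T on the sense strand. It was present in 11 of the 46 members (23.9%) against 6.24% of protein-coding genes in the same table. The 11 were EEF1A1, EEF1B2, EEF2, EIF2A, EIF2S3, EIF2S3B, EIF3D, EIF3F, EIF3K, EIF3M and EIF4B. Each window below runs 15 bases on either side of the junction before an annotated start, 5′ to 3′, and capitals mark the pyrimidine run. The last 3 have none.
EEF2, chr19:3985449-3985478 (minus strand): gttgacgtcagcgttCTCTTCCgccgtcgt
EEF1A1, chr6:73521018-73521047 (minus strand): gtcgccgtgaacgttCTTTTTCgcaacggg
EIF3F, chr11:7987322-7987351 (plus strand): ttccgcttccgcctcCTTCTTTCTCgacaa
EIF3D, chr22:36529152-36529181 (minus strand): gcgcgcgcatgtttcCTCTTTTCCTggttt
EIF3M, chr11:32583816-32583845 (plus strand): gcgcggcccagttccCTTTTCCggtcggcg
EIF1, chr17:41688870-41688899 (plus strand): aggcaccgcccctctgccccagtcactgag
EIF2S1, chr14:67360313-67360342 (plus strand): gcgaggaggttccgcatgcgcggtggagtg
EIF4E, chr4:98929119-98929148 (minus strand): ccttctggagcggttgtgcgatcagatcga

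With 4-OHT, each family of EIF names took a larger share of the footprints in every library. The elongation factors with EEF names did not. EIF5A, described below as acting on stalled ribosomes, is counted in the eIF5 family. In WT clone 15 EIF5A held 135 of that family's 479 reads without 4-OHT and 693 of 1222 with it. All members together held 0.598% to 0.637% of the reads of the 4 libraries without 4-OHT and 0.932% to 0.986% of the 4 with it. eIF1 and eIF1A genes went from 0.0236% to 0.0279% without 4-OHT to 0.0750% to 0.0866% with it, and eIF3 genes from 0.203% to 0.227% to between 0.330% and 0.348%. The corresponding shares were 0.0293% to 0.0341% and 0.0557% to 0.0617% for eIF2, and 0.0173% to 0.0209% and 0.0346% to 0.0402% for eIF2B. For these 4 families and for eIF4 (0.148% to 0.161% against 0.206% to 0.239%) and eIF5 (0.0332% to 0.0371% against 0.0666% to 0.0896%), no library with 4-OHT overlapped one without. The elongation factors with EEF names held 0.120% to 0.151% without and 0.105% to 0.135% with 4-OHT, ranges that overlap over both genotypes. Within each genotype both libraries with 4-OHT were lower, a difference that was not tested. The shares were 0.105% and 0.119% against 0.120% and 0.123% in WT clones, and 0.120% and 0.135% against 0.140% and 0.151% in knockout clones. Most of these reads were on EEF2, with 1419 of 1620 in WT clone 15 without 4-OHT and 165 of 232 in knockout clone 66 with it.

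**Figure D1:**
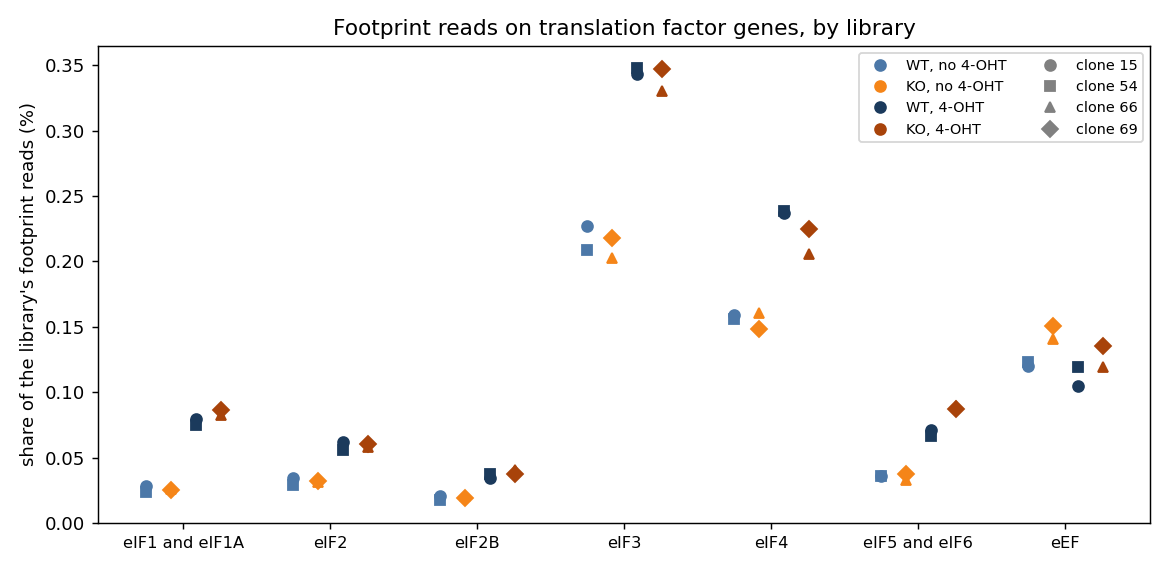
Share of each library's footprint reads (percent, vertical axis) on 7 families of translation factors, with colour for group and marker shape for clone. Every family of EIF names lies higher in the libraries with 4-OHT. The eEF shares overlap over both genotypes (0.120% to 0.151% against 0.105% to 0.135%), but within each genotype both libraries with 4-OHT lie lower.

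Gene by gene, 17 of 49 tested members rose with 4-OHT in WT clones (34.7%) and none fell, at an adjusted p under 0.05 by limma-trend on log2(RPKM + 1). Over all 8774 genes tested, 13.5% rose and 8.06% fell. In knockout clones 20 members rose (40.8%, against 17.1% of all genes) and 2 fell (4.08%, against 10.6%). With the clone as a block, 13 rose in WT clones (all genes 11.1% higher and 6.58% lower), and 18 rose and 2 fell in knockout clones (14.0% and 8.81%). Limma-voom with that block called 24 higher and 2 lower in WT clones (21.8% and 13.1%), and 23 higher and 2 lower in knockout clones (21.4% and 11.5%). By limma-trend without the block 16 members rose in both genotypes. EIF3G rose only by that WT test, and EIF1B, EIF2S2, EIF3H and EEF1B2 only by that knockout test. These 4 are not set apart by every fit. Limma-voom without the block also called EIF2S2, EIF3H and EEF1B2 higher in WT clones, and a fit of the WT libraries alone called EIF1B higher there. Of the 44 members that pass the filter of 10 reads in 2 libraries in each table by itself, 15 rose in WT clones, and 18 rose and 1 fell in knockout clones. No share of all genes under that filter is given here, so these counts have no background to be read against. The difference of the 4-OHT response between genotypes was tested directly, and no member passed (unadjusted p under 0.05 for 2 of 49 members, against 5.14% of all genes, and 0 members by limma-voom).

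The median log2 fold change of the members was 0.62 in WT and 0.60 in knockout clones, beside 0.06 and 0.05 for all genes. The 2 tests share no library, but they share their estimate of spread. Median-ratio scaling lowered the member medians to 0.40 and 0.34. No median of all genes under that scaling is given here, so these medians have no background to be read against. That scaling left 13 higher and 1 lower in WT clones and 11 higher and 4 lower in knockout clones. It ended the calls of EIF2B3, EIF3G, EIF3M and EEF1E1 in WT clones, and of EIF1AX, EIF1AY, EIF1AD, EIF2S1, EIF2S2, EIF3D, EIF3H, EIF3M and EIF4G2 in knockout clones. It added EIF4G1 as lower in WT clones, and EEF2 and EIF4G3 as lower in knockout clones. Over all genes that scaling gave 815 higher (9.29%) and 980 lower (11.2%) in WT clones, where the deposited scale gave 1181 and 707, and 994 higher (11.3%) and 1345 lower (15.3%) in knockout clones, where the deposited scale gave 1496 and 929. Short genes tended to have higher fold changes: Spearman's rho of span with fold change was -0.28 across all genes in WT clones and -0.29 across the 49 members, as a description across genes of the same libraries. In WT clones the median was 0.84 for the 24 members with the shorter spans and 0.41 for the other 25, and in knockout clones 0.64 and 0.60.

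**Figure D2:**
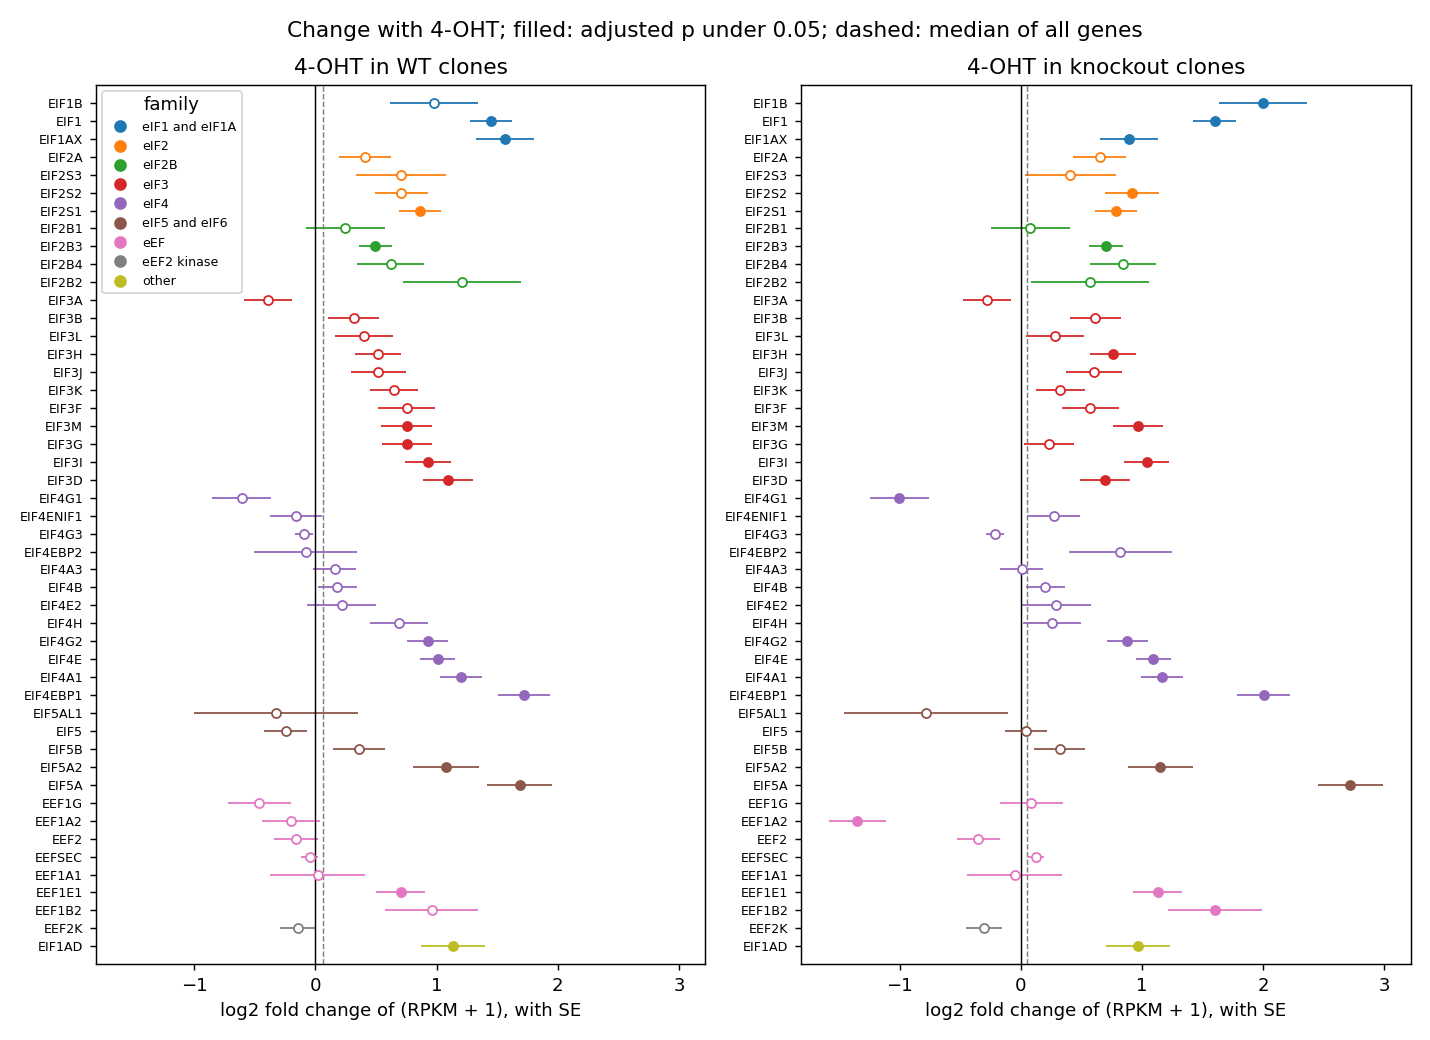
Log2 fold change of (RPKM + 1) with 4-OHT in WT (left) and knockout clones (right) for each tested member but EIF1AY, coloured by family, with bars of 1 SE. Filled points passed an adjusted p of 0.05, dashed lines mark the median of all genes (0.06 and 0.05), and EIF3A and EIF4G1 lie below 0 in both panels.

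EIF1, which keeps the scanning ribosome from accepting a wrong start codon, rose in both genotypes. Its footprints were 62.4 and 55.8 RPKM in WT clones 15 and 54, and 57.4 and 55.2 in knockout clones 66 and 69. With 4-OHT they were 166 and 159, and 156 and 190. Every library with 4-OHT was above every library without. The log2 fold change was 1.45 ± 0.17 (SE) in WT clones (adjusted p = 0.00186) and 1.60 ± 0.17 in knockout clones (adjusted p = 0.00112).

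Its paralog EIF1B had 9.18 and 7.44 RPKM in the WT clones and 8.57 and 11 in the knockout clones, and with 4-OHT 17.7 and 16.9, and 63.6 and 27.3. The knockout clones with 4-OHT thus differed from each other more than the WT clones did, with the highest value in the shallow library of clone 66 (33 reads). EIF1B rose in knockout clones (log2 fold change 2.0 ± 0.36, adjusted p = 0.00725) and had 0.98 ± 0.36 in WT clones (adjusted p = 0.101). The knockout call ended without clone 66 lacking 4-OHT (adjusted p = 0.0533). The scanning factor EIF1AX was at 5 or 6 reads in every library without 4-OHT (0.169 to 0.384 RPKM), and at 2.67 and 2.94 RPKM in the WT and 0.908 and 1.94 in the knockout clones with it. It passed the read filter only through the 4-OHT libraries, so a rise was the only change that could be seen, and both tests called it (adjusted p = 0.00432 and 0.0306). In knockout clones the call ended with the clone as a block (adjusted p = 0.0598), and without clone 66 (0.0900) or clone 69 (0.152) lacking 4-OHT or clone 69 with it (0.0502). EIF1AY was also called higher in both genotypes, and its values are not given. Its WT call ended without clone 54 lacking 4-OHT (0.0527) or clone 15 with it (0.0638), and its knockout call without any 1 knockout library (0.0577 to 0.150).

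In eIF2, the factor that binds the initiator tRNA, all 4 tested genes had a log2 fold change above 0 in both genotypes, with a median of 0.71 in WT and 0.72 in knockout clones. EIF2S1, the alpha subunit that stress kinases phosphorylate, had 5.60 and 5.46 RPKM in WT and 5.16 and 5.98 in knockout clones. With 4-OHT it had 11.3 and 10.5, and 10.6 and 9.99. The groups did not overlap, and the rise was called in WT (0.86 ± 0.17, adjusted p = 0.0123) and knockout clones (0.78 ± 0.17, adjusted p = 0.0153). Leaving out any 1 WT library ended the WT call (adjusted p 0.0594 to 0.0827), and leaving out knockout clone 66 without 4-OHT ended the other (0.0931).

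EIF2S2, the beta subunit, went from 1.53 and 1.27 to 3.94 and 3.15 RPKM in knockout clones, a called rise (0.92 ± 0.22, adjusted p = 0.0209). In WT clones it had 1.99 and 1.37 without and 3.05 and 3.69 with 4-OHT (0.71 ± 0.22, adjusted p = 0.0589). The knockout call ended without clone 66 or clone 69 lacking 4-OHT (adjusted p = 0.0765 and 0.0985) and without clone 66 with it (0.0649). EIF2A, which is not a subunit of eIF2, had the lowest fold change of the group in WT clones (0.41 ± 0.22), with 2.33 and 2.06 against 3.87 and 2.68 RPKM, and in knockout clones 2.20 and 2.04 against 4.27 and 3.56. EIF2S3, the gamma subunit, passed in neither genotype by limma-trend over all libraries, and limma-voom called it higher in both. EIF2S3B had at most 3 reads in any library and was not tested.

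In eIF2B, the exchange factor of eIF2, EIF2B3 was the called member. Its footprints were 0.311 and 0.381 RPKM in WT and 0.163 and 0.313 in knockout clones, and 0.823 and 0.972, and 1.15 and 0.882, with 4-OHT. All 4 libraries with 4-OHT were above all 4 without. The log2 fold change was 0.49 ± 0.14 in WT clones (adjusted p = 0.0403) and 0.70 ± 0.14 in knockout clones (adjusted p = 0.00933). The WT call ended with the clone as a block (adjusted p = 0.0834) and without any 1 of the WT libraries (0.10 to 0.210), and the knockout call without clone 66 lacking 4-OHT (0.0855).

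The highest and lowest eIF2B subunits in WT clones, EIF2B2 and EIF2B1, did not pass by limma-trend over all libraries without the block. EIF2B2 had 4.16 and 3.35 RPKM in WT clones and 10.5 and 9.35 with 4-OHT (1.21 ± 0.49, adjusted p = 0.126), and with the clone as a block it passed (adjusted p = 0.0478). Limma-voom, with and without the block, called it higher in both genotypes, and so did a fit of the WT libraries alone in WT clones. In knockout clones it had 3.76 and 6.07, and with 4-OHT 3.88 in clone 66 and 14.2 in clone 69, so the clones of the knockout spread widely. EIF2B1 had 6.34 and 4.45 RPKM in WT clones and 6.17 and 6.86 with 4-OHT, and 7.88 and 4.86 against 9.02 and 4.80 in knockout clones, with groups that overlap. By limma-trend over all libraries EIF2B4 passed in neither genotype without the block, and in knockout clones with it (adjusted p = 0.0493).

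eIF3 is the largest initiation factor, a scaffold on the small subunit, and 10 of its 11 tested genes had a fold change above 0 in each genotype (median 0.65 in WT and 0.60 in knockout clones). In WT clones 4 rose, namely EIF3D, EIF3G, EIF3I and EIF3M, and in knockout clones 4 rose, namely EIF3D, EIF3H, EIF3I and EIF3M. EIF3I had 40.9 and 38.9 RPKM in WT and 29.7 and 39.2 in knockout clones, and with 4-OHT 78.1 and 75.6, and 68.1 and 74.3. The groups stood well apart, with a log2 fold change of 0.93 ± 0.19 in WT (adjusted p = 0.0127) and 1.04 ± 0.19 in knockout clones (adjusted p = 0.00700). The WT call ended without any 1 of the WT libraries (adjusted p 0.0621 to 0.0865).

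EIF3D, which can itself bind the cap of some mRNAs, had the highest eIF3 fold change in WT clones, 1.09 ± 0.20 (adjusted p = 0.00932). It went from 11.2 and 9.18 to 22.3 and 23.3 RPKM there, and from 12.4 and 11.4 to 17.2 and 23.0 in knockout clones (0.70 ± 0.20, adjusted p = 0.0406). The WT call ended without clone 54 lacking 4-OHT (adjusted p = 0.0767) or with it (0.0624). The knockout call ended with the clone as a block (0.0764), and without clone 66 lacking 4-OHT (0.120), clone 69 lacking it (0.150) or clone 69 with it (0.105). EIF3M, which like EIF3D carries the pyrimidine run shown above, had 8.94 and 7.72 against 15.8 and 13.7 RPKM in WT clones, and 7.31 and 8.21 against 13.8 and 18.8 in knockout clones. Its rise was called in both (adjusted p = 0.0408 and 0.0141). The WT call ended with the clone as a block (adjusted p = 0.0526) and without any 1 WT library (0.111 to 0.206), and the knockout call without clone 66 lacking 4-OHT (0.0846).

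EIF3G and EIF3H passed in 1 genotype each by limma-trend without the block, and limma-voom called EIF3H higher in both genotypes. EIF3G had 31.9 and 29.8 against 47.9 and 58.0 RPKM in WT clones (0.76 ± 0.21, adjusted p = 0.0393) and 43.3 and 36.3 against 40.7 and 53.6 in knockout clones, where the groups overlap (adjusted p = 0.437). The WT call ended with the clone as a block (adjusted p = 0.0819) and without any 1 WT library (0.0763 to 0.191). The difference between the genotypes was -0.52 ± 0.29 (adjusted p = 0.859). EIF3H had 1.68 and 1.48 against 2.61 and 2.75 RPKM in WT clones (adjusted p = 0.101) and 1.41 and 1.61 against 3.54 and 2.98 in knockout clones (0.76 ± 0.19, adjusted p = 0.0251). That call ended with the block (0.0604) and without clone 66 lacking 4-OHT (0.130), clone 69 lacking it (0.0762) or clone 66 with it (0.0682).

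EIF3A, the largest eIF3 subunit, was the exception below 0. It had 8.49 and 7.11 RPKM in WT clones and 5.47 and 5.91 with 4-OHT, and 7.27 and 7.54 against 6.78 and 5.16 in knockout clones. Every library with 4-OHT was lower, but neither test passed (-0.39 ± 0.20, adjusted p = 0.206, and -0.28 ± 0.20, adjusted p = 0.324). The other tested subunits EIF3B, EIF3F, EIF3J, EIF3K and EIF3L passed in neither genotype by limma-trend over all libraries. Limma-voom called EIF3K higher in WT and EIF3B higher in knockout clones. With the block it also called EIF3F higher and EIF3A lower in WT clones. EIF3C had at most 3 reads in any library and was not tested. It has a near-identical copy, EIF3CL, between which reads may be split or dropped.

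The genes with eIF4 names, which include inhibitors of eIF4E and a helicase of the exon junction complex, moved apart from each other. Of 12 tested, 4 rose in each genotype, and these were EIF4A1, EIF4E, EIF4EBP1 and EIF4G2. EIF4G1 fell in knockout clones. The median was 0.20 in WT and 0.28 in knockout clones. EIF4E, the cap-binding protein, had 0.154 and 0.215 RPKM in WT and 0.301 and 0.198 in knockout clones (8 to 17 reads), and 1.5 and 1.27, and 1.69 and 1.64, with 4-OHT. The log2 fold change of 1.01 ± 0.14 in WT (adjusted p = 0.00345) and 1.09 ± 0.14 in knockout clones (adjusted p = 0.00223) understates the ratio of the mean RPKM, which was 7.51 and 6.67.

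EIF4EBP1, the mTORC1-controlled inhibitor that holds eIF4E away from eIF4G, rose together with it. Its footprints were 0.735 and 0.890 RPKM in WT and 0.446 and 0.588 in knockout clones. With 4-OHT they were 4.19 and 5.86, and 4.74 and 5.43. This was the highest eIF4 fold change in WT clones, 1.72 ± 0.22 (adjusted p = 0.00221), and in knockout clones it was 2.0 ± 0.22 (adjusted p = 0.00112). The related inhibitor EIF4EBP2 passed in neither genotype. It had 0.266 to 0.568 RPKM in 7 libraries and 3.0 in knockout clone 66 with 4-OHT. EIF4EBP3 had at most 7 reads and was not tested, and it overlaps the readthrough gene ANKHD1-EIF4EBP3.

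The helicase EIF4A1 had 35.2 and 33.8 RPKM in WT and 34.8 and 42.6 in knockout clones, and 80.5 and 81.0, and 83.9 and 91.2, with 4-OHT. Replicates were close, and the rise was 1.2 ± 0.17 in WT (adjusted p = 0.00340) and 1.16 ± 0.17 in knockout clones (adjusted p = 0.00335). EIF4A1 has 3 snoRNA genes within its span (SNORA48, SNORA67 and SNORD10) and 13 pseudogenes named after it. How reads on these were counted is not given in the sources used here. EIF4A3, the related helicase of the exon junction complex, had 17.1 to 22.6 RPKM without 4-OHT and 18.8 to 23.0 with it, and passed in neither genotype.

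The scaffolds EIF4G1 and EIF4G2 went opposite ways. EIF4G2, which lacks the eIF4E-binding part of EIF4G1, had 41.0 and 37.1 RPKM in WT and 28.3 and 27.1 in knockout clones. With 4-OHT it had 77.0 and 73.1, and 47.7 and 56.1. It rose by 0.93 ± 0.17 in WT (adjusted p = 0.00863, but 0.0727 without clone 54 lacking 4-OHT) and by 0.88 ± 0.17 in knockout clones (adjusted p = 0.00910, but 0.0616 under median-ratio scaling). The knockout clones lay below the WT clones both without and with 4-OHT. That difference did not pass over all genes (-0.48 ± 0.16, adjusted p = 0.580, and -0.53 ± 0.21, adjusted p = 0.822).

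EIF4G1 had 18.7 and 20.9 RPKM in WT and 21.5 and 18.5 in knockout clones, and 12.4 and 12.8, and 7.28 and 12.2, with 4-OHT. All 4 libraries with 4-OHT were below all 4 without. The log2 fold change was -1.0 ± 0.24 in knockout clones (adjusted p = 0.0219), and -0.61 ± 0.24 in WT clones, the lowest of the group there (adjusted p = 0.122). The knockout call ended without clone 66 lacking 4-OHT (0.118), clone 69 lacking it (0.0594) or clone 66 with it (0.0647). The WT fold change passed under median-ratio scaling, by limma-voom with and without the block, and with the WT libraries alone in the fit. EIF4B, EIF4E2, EIF4ENIF1, EIF4G3 and EIF4H passed in neither genotype by limma-trend over all libraries on the deposited scale. Limma-voom with and without the block, and the fit of the WT libraries alone, called EIF4H higher in WT clones.

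**Figure D3:**
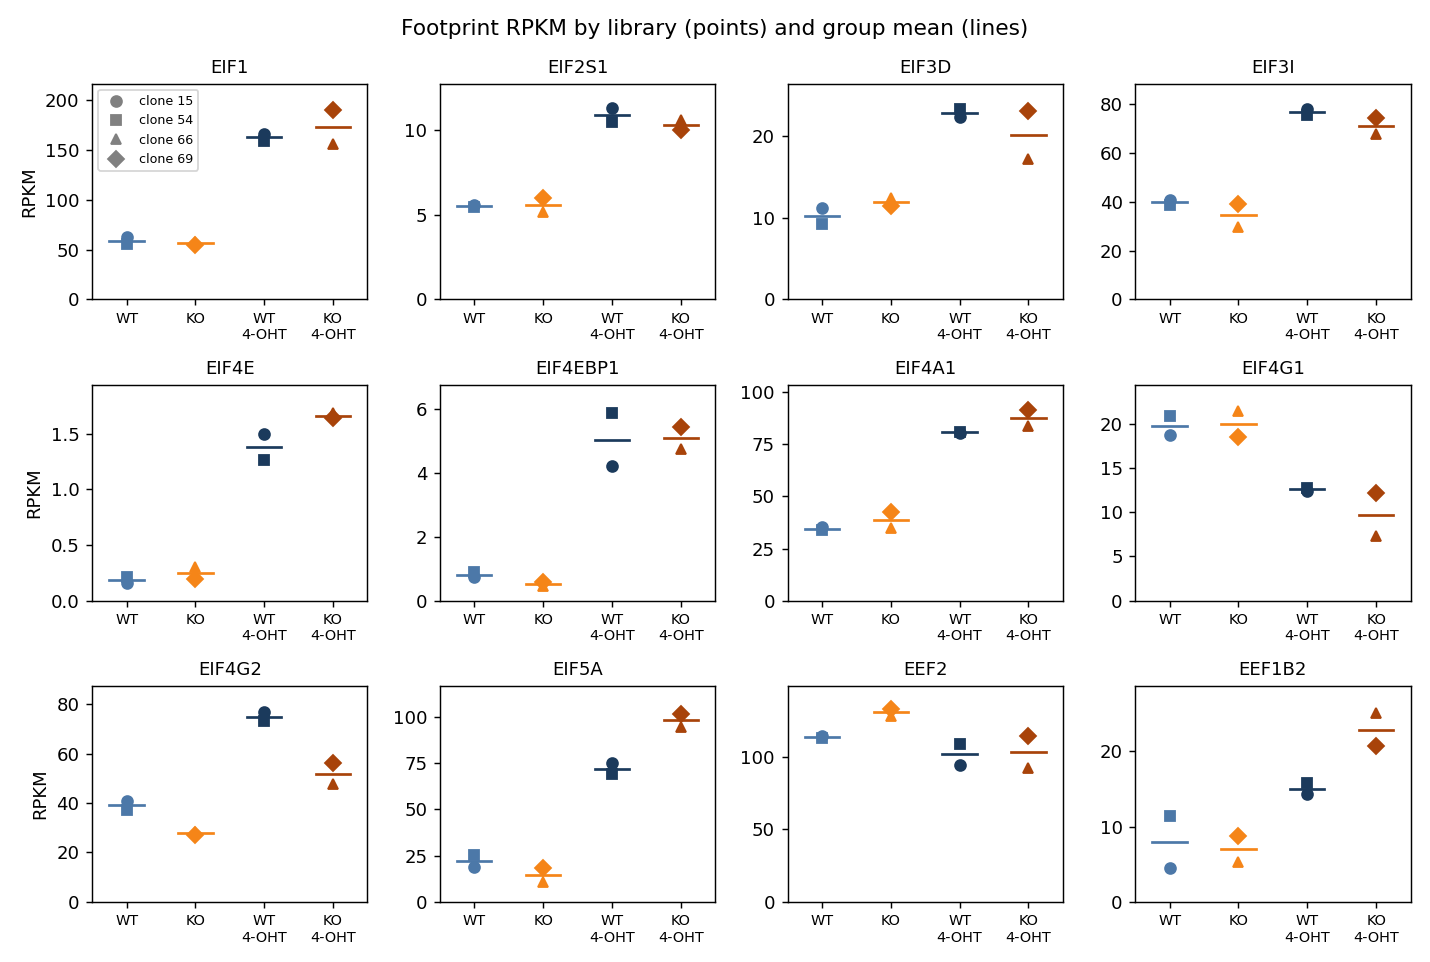
RPKM (vertical axis, from 0) of 12 translation factor genes in each library, with marker shape for clone and lines for group means. EIF1, EIF4A1, EIF4E, EIF4EBP1 and EIF5A lie higher in every library with 4-OHT, EIF4G1 lies lower in each, and EEF2 stays between 91.9 and 133 RPKM.

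EIF5A, which relieves ribosomes stalled at prolines and carries the modified lysine hypusine, had the highest log2 fold change of any member in knockout clones. It had 18.7 and 25.2 RPKM in WT and 10.8 and 18.3 in knockout clones, and 75.2 and 69.0, and 94.9 and 102, with 4-OHT. Without 4-OHT the knockout clones were below the WT clones, and with 4-OHT they were above them. The rise was 1.68 ± 0.27 in WT (adjusted p = 0.00491) and 2.72 ± 0.27 in knockout clones (adjusted p = 7.76e-04). The difference of these responses, 1.04 ± 0.38, had an unadjusted p of 0.0271 and an adjusted p of 0.859.

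EIF5A2, its paralog, was nearly without reads before 4-OHT: 0.187 and 0.125 RPKM in WT and 0 and 0.405 in knockout clones, from 0 to 14 reads. With 4-OHT it had 0.968 and 2.02, and 2.07 and 1.26. The groups did not overlap. Without 4-OHT a single library had 10 or more reads, so EIF5A2 passed the filter of 10 reads in 2 libraries through those with 4-OHT, as EIF1AX did, and its call has the same limit. The rise was called in WT (1.08 ± 0.27, adjusted p = 0.0295) and knockout clones (1.15 ± 0.27, adjusted p = 0.0192). The WT call ended with the clone as a block (0.0603), and without clone 15 (0.126) or 54 (0.153) lacking 4-OHT or clone 54 with it (0.151). The knockout call ended without clone 66 lacking 4-OHT (0.132) or with it (0.0635). EIF5 and EIF5B passed in neither genotype, nor did EIF5AL1, a copy of EIF5A with at most 12 reads. EIF1AD rose in both (1.13 ± 0.26, adjusted p = 0.0226, and 0.97 ± 0.26, adjusted p = 0.0328), with 2.70 and 1.58 against 6.44 and 5.14 RPKM in WT clones, and 2.77 and 3.54 against 8.40 and 5.99 in knockout clones. Its WT call ended without 3 of the 4 WT libraries (0.0733 to 0.147) and its knockout call without 3 of the 4 knockout libraries (0.0738 to 0.164) and by limma-voom (0.117, and 0.133 with the block).

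The elongation factors with EEF names had a median near that of all genes, -0.05 in WT and 0.09 in knockout clones. The latter was -0.20 under median-ratio scaling, which called fewer of all genes higher and more of them lower. EEF2, the translocase, had 114 and 113 RPKM in WT and 128 and 133 in knockout clones, and 94.5 and 109, and 91.9 and 114, with 4-OHT. Within each genotype the libraries with 4-OHT were lower, but neither test passed (-0.16 ± 0.18, adjusted p = 0.577, and -0.35 ± 0.18, adjusted p = 0.189). Under median-ratio scaling EEF2 passed as lower in knockout clones (adjusted p = 0.0347). EEF2K, the kinase that inhibits eEF2, had 0.429 to 0.659 RPKM without and 0.127 to 0.469 with 4-OHT, and EEFSEC, which delivers selenocysteine, had 0.0511 to 0.267 RPKM over all libraries. Neither passed.

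Of the elongation factors with EEF names, EEF1B2 and EEF1E1 rose. EEF1B2, an exchange subunit of eEF1A, had 5.30 and 8.74 against 25.1 and 20.7 RPKM in knockout clones (1.60 ± 0.39, adjusted p = 0.0212). In WT clones it had 4.52 and 11.3 against 14.4 and 15.7, the highest fold change of the group there (0.96 ± 0.39, adjusted p = 0.125). The knockout call ended without clone 66 lacking 4-OHT (0.126) or with it (0.0717). The gene holds 2 snoRNA genes, SNORA41 and SNORD51, and has 8 pseudogenes named after it. EEF1E1, a scaffold protein of the tRNA synthetase complex, had 0.492 and 0.477 against 1.62 and 1.22 RPKM in WT clones (adjusted p = 0.0483) and 0.494 and 0.601 against 2.87 and 1.95 in knockout clones (adjusted p = 0.00722). Its WT call ended with the block (0.0875) and without any 1 WT library (0.109 to 0.207), and its knockout call without clone 66 lacking 4-OHT (0.0576). EEF1G, another eEF1B subunit, had the lowest fold change in WT clones, -0.46 ± 0.26 (adjusted p = 0.251), with 5.66 and 5.57 against 3.36 and 4.28 RPKM, and in knockout clones 3.80 and 6.50 against 4.76 and 6.05.

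EEF1A2, the eEF1A form that muscle and neurons use in place of EEF1A1, had its higher values in the knockout clones. It had 0.683 and 0.343 RPKM in WT clones (10 and 3 reads) and 9.01 and 7.18 in knockout clones (90 and 136 reads). With 4-OHT it had 0.482 and 0.153 (9 and 1 reads) in WT and 2.37 and 2.76 (5 and 30 reads) in knockout clones. Both knockout clones were above both WT clones in each condition. The summed reads per depth were 14.1 times as high in knockout as in WT clones without 4-OHT (exact 95% interval 8.06 to 26.8) and 6.79 times with it (3.29 to 15.4). These intervals cover counting error only, not the spread between clones.

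Without 4-OHT the log2 fold change of EEF1A2 was 2.59 ± 0.22, with an adjusted p of 0.222 by limma-trend on the 4 libraries, where no gene passed. It passed by limma-voom on recovered reads (adjusted p = 0.0202) and with all 8 libraries in the fit (0.0359, a fit that called 0.0228% of all genes higher and 0.0114% lower), and in 2 of 10 alternatives in all. Only a single WT library reached 10 reads, so EEF1A2 passed the filter of this comparison through the knockout clones, where it was higher. A higher value in the knockout was thus the change these tests were open to. With 4-OHT it was below the read filter of that comparison, and with all 8 libraries the difference was 1.44 (adjusted p = 0.336). Within knockout clones EEF1A2 fell with 4-OHT, by 1.35 on the log2 scale (SE 0.24, adjusted p = 0.00633), which passed in 12 of 12 alternatives (highest adjusted p 0.0499, without clone 66 lacking 4-OHT). A single library with 4-OHT had 10 or more reads, so EEF1A2 passed the filter through those without it, where it was higher. The summed reads per depth were 0.345 times those without 4-OHT (exact 95% interval 0.234 to 0.494). In WT clones the fold change was -0.20 ± 0.24 (adjusted p = 0.600), and the difference between genotypes was -1.15 ± 0.34 (adjusted p = 0.859).

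Of 4 listed neighbours on chromosome 20, the 3 that were tested did not pass between genotypes by limma-trend. Without 4-OHT the log2 fold change of PPDPF was -0.29 ± 0.16 (adjusted p = 0.680), that of HELZ2 0.03 ± 0.33, with clones that overlap, and that of GMEB2 0.07 ± 0.07, with both knockout clones higher. PTK6 had 4 reads in knockout clone 66 and 0 in the other 3 libraries without 4-OHT, and was not tested. With 4-OHT HELZ2 was higher in both knockout clones, at 2.02 times the WT mean (0.53 ± 0.27, adjusted p = 0.822). Skeletal muscle markers held 0.00348% to 0.00535% of the reads without 4-OHT and 0.00210% to 0.00571% with it, and neuron markers 0.00121% to 0.00261% and 0.00258% to 0.00856%. Of 7 muscle markers 4 were listed without and 3 with 4-OHT, and of 7 neuron markers 3 and 5. The ranges without and with 4-OHT thus sum different genes. EEF1A1, the form of most tissues, had 1.72 and 4.31 RPKM in WT and 3.36 and 5.42 in knockout clones, and 3.14 and 2.57, and 2.98 and 5.59, with 4-OHT. These rest on 3 to 49 reads, overlap between groups and passed no test. EEF1A1 has 50 pseudogenes named after it, and how reads that fit several places were counted is not given in the sources used here, so its level is uncertain.

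**Figure D4:**
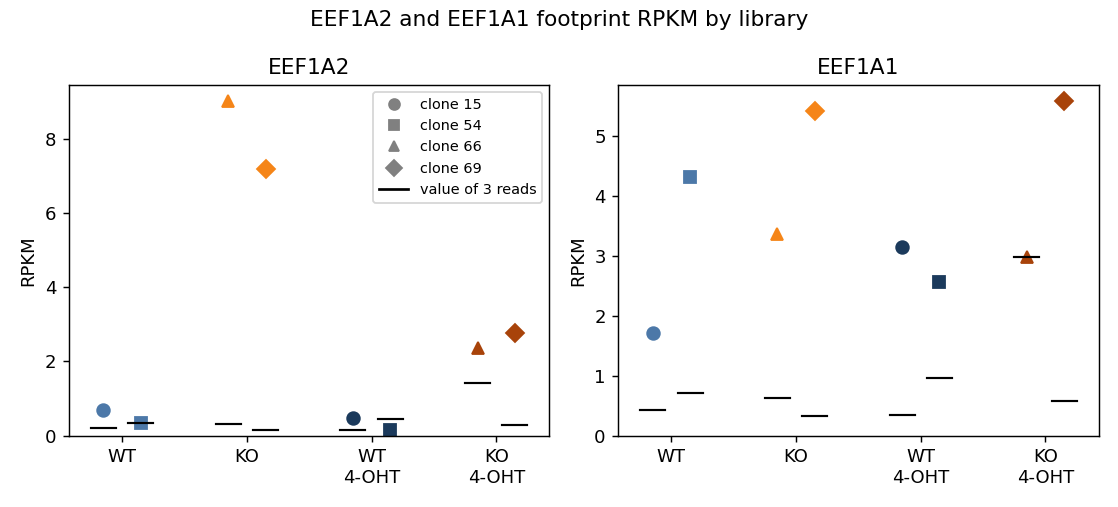
RPKM (vertical axis, from 0) of EEF1A2 and EEF1A1 in each library, with marker shape for clone and a black line for the value of 3 reads in that library. EEF1A2 is at 7.18 and 9.01 RPKM in the knockout clones without 4-OHT and at most 0.683 in WT libraries, while EEF1A1 overlaps between groups.

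Between genotypes no member passed in either condition, as no gene did (0% of 8159 genes without and of 7758 with 4-OHT). An unadjusted p under 0.05 was reached by 2 of 45 members without 4-OHT, EEF1A2 and EIF4G2 (against 8.42% of all genes). With 4-OHT it was reached by 3 of 47, EIF1B and EEF1B2 higher and EIF4G2 lower in knockout clones (against 4.70%). Limma-voom called 1 member without 4-OHT, EEF1A2, where it called 0.404% of all genes higher and 0.355% lower, and 0 members with 4-OHT (0.322% and 0.361%). Clones of the 2 genotypes did not overlap for 14 members without 4-OHT, 10 higher and 4 lower in the knockout (18.9% and 20.6% of all genes). With 4-OHT these were 11 higher and 5 lower (19.1% and 18.5%). Of the members, 22.2% were higher and 8.89% lower without 4-OHT, and 23.4% and 10.6% with it. The higher shares are near the background and the lower ones below it, a difference that was not tested.

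The counts of rising genes were then set beside the start-site run. Of the 10 tested members that have it 2 rose in WT clones, EIF3D and EIF3M, and of the 32 matched members without it 13 rose. The corresponding counts in knockout clones were 3 of 10 and 14 of 32. The medians were 0.68 and 0.57 in WT clones and 0.49 and 0.66 in knockout clones. The E-box CACGTG, which reads the same on both strands, lay in the 300-base promoter of 13 of 46 members (28.3%) and of 10.9% of protein-coding genes. Of the 12 tested members with it 3 rose in WT clones, against 12 of 30 without. In knockout clones EIF1B, EIF2B3, EIF4E and EIF5A2 of these 12 rose, EIF4G1 fell, and the others passed in neither direction.

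Among the called members, EIF2S1 overlaps the span of GPHN, EIF3G that of P2RY11, and EIF3M that of CCDC73. Whether strand was used in counting is not given in the sources used here, so some of their reads may belong to those genes. Members that host a snoRNA gene were EIF3A, EIF4A1, EIF4G1, EIF4G2, EIF5, EEF1B2 and EEF2. Of these 7, EIF4A1 and EIF4G2 rose in WT clones, and the median log2 fold change was -0.16 beside 0.64 for the 42 others, of which 15 rose. In knockout clones 3 of the 7 rose and EIF4G1 fell, with medians of 0.04 and 0.61.

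Other genes of translation were taken from fixed lists. Of 7 termination and recycling genes 3 rose in each genotype. The release factor GSPT1 rose by 1.22 ± 0.20 in WT (adjusted p = 0.00541) and 1.26 ± 0.20 in knockout clones (adjusted p = 0.00423), and the recycling factor MCTS1 by 1.39 ± 0.21 and 1.06 ± 0.21. ABCE1, which splits ribosomes, rose in WT clones, and the release factor ETF1 in knockout clones. Of 5 genes of poly(A)-binding proteins and their partners 1 rose in each genotype, PAIP2, an inhibitor of the poly(A)-binding protein. None of 8 genes of the eIF2 kinases, their phosphatase and the downstream factor ATF4 passed in either genotype on the deposited scale by limma-trend over all libraries. Of 12 genes of the eIF4E kinases and the mTORC1 axis none passed in WT clones and AKT1S1, an mTORC1 inhibitor, rose in knockout clones (1.22 ± 0.23).

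Of 11 genes that modify elongation factors 1 rose in WT clones, DPH5, which acts in making the diphthamide of eEF2. In knockout clones 3 rose: DHPS, which makes the hypusine precursor on eIF5A (1.31 ± 0.22), EEF2KMT, a methyltransferase of eEF2, and DNAJC24. Of 8 mitochondrial translation factors TUFM, the mitochondrial elongation factor Tu, rose in both genotypes (0.77 ± 0.20 in each), and MTIF2 rose in knockout clones. No gene of these lists fell in these tests.

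Several of these calls depended on the setting. GSPT1 in both genotypes, MCTS1 in WT clones and DHPS in knockout clones passed in all 12 alternatives. With the clone as a block, the calls of ABCE1 (adjusted p = 0.0580), DPH5 (0.0687) and TUFM (0.0647) ended in WT clones, and those of ETF1 (0.0825), MTIF2 (0.0563), PAIP2 (0.0733) and TUFM (0.0563) in knockout clones. Median-ratio scaling ended the same 3 in WT clones and those of EEF2KMT, ETF1, MTIF2, PAIP2 and TUFM in knockout clones. It called the eIF2 phosphatase subunit PPP1R15B, RPTOR and TSC2 lower in WT clones, and the eIF2 kinase EIF2AK2 and MLST8 lower in knockout clones. Limma-voom called the eIF2 kinase EIF2AK4 higher (adjusted p = 9.36e-04) and RPTOR and TSC2 lower in WT clones, and EIF2AK2 and RPTOR lower in knockout clones. It also called DENR (0.0456), DHPS (0.0236), MTIF3 (0.0307) and N6AMT1 (0.00287) higher in WT clones, and ABCE1 (0.0429) and DENR (0.0188) higher in knockout clones. By limma-voom ABCE1 and DHPS were thus higher in both genotypes. With the block limma-voom also called PPP1R15B lower in WT clones (adjusted p = 0.0403). Leaving out any 1 WT library ended the WT calls of ABCE1, DPH5, PAIP2 and TUFM (0.0757 to 0.186). Without clone 66 lacking 4-OHT each knockout call but those of GSPT1 and DHPS ended (0.0629 to 0.238). Without clone 69 lacking 4-OHT those of EEF2KMT, DNAJC24, ETF1, MTIF2 and PAIP2 ended (0.0602 to 0.124), without clone 66 with it those of EEF2KMT, DNAJC24, ETF1, MTIF2 and TUFM (0.0527 to 0.132), and without clone 69 with it that of PAIP2 (0.0805). That last fit called ATF4, MKNK1, MLST8 and RPS6KB1 lower, and DPH2, EEF1AKMT1, MTRF1 and RPS6KB2 higher. Fitting the 4 knockout libraries alone ended the calls of EEF2KMT, ETF1, MCTS1, MTIF2, PAIP2 and TUFM (0.0557 to 0.133).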

How the data were processed

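Ribosome-protected fragments were profiled in 8 libraries. Per the labels' protocols they were isolated and made into libraries by published ribosome profiling protocols, and the submitters' processing notes name STAR and GRCh38. The deposited values carry no unit and were read as RPKM over the gene span including introns, since the sum of value times span was close to equal across libraries. The authors' counting of reads that fit several places is not given in the sources used here.

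Reads were recovered from whole-number steps in the low values, with 76.0% to 81.4% of low values within 0.1 of a whole number, so reads and depths are approximate. Spans came from RefSeq GRCh38.p14: without 4-OHT 11345 of 11546 genes matched by identifier, 17 by symbol, 79 by an older symbol and 105 not at all (with 4-OHT 10884, 16, 75 and 104 of 11079).

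Genes with 10 or more recovered reads in 2 or more libraries were tested with limma-trend (limma 3.58.1, R 4.3.3) on log2(RPKM + 1), two-sided, with Benjamini-Hochberg adjustment over all tested genes and a threshold of 0.05. The added 1 shrinks the fold changes of low values. Genotypes were compared within each table. 4-OHT and the difference of responses were tested on all 8 libraries. Labels do not say whether libraries of a clone come from separate cultures beyond the clone itself, so p-values measure the spread between these libraries. Fits were tested on simulated data with the same dispersion for every gene and no difference between clones. That checks how the fits run and cannot vouch for the calls made here.

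The clone is the same without and with 4-OHT per the labels, which pairs those libraries. Deviations from group means of libraries of the same clone correlated at 0.143 (WT) and 0.008 (knockout) over 8774 genes. Values are given in every library for each called member but EIF1AY, for EEF1A2, and for the highest and lowest member in WT clones of eIF2, eIF2B, eIF3, eIF4 and eEF. Members and lists were chosen with earlier results of these data known. Alternatives were a pseudocount of 0.1, no read filter, median-ratio scaling, rescaling without ribosomal protein and mitochondrial genes, limma-voom, members without a snoRNA, other sets of libraries, each library left out, and the clone as a block. Limma-voom with the block was chosen after seeing the data.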

Additional observations from a re-analysis of the deposited data

How the results depend on the processing

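The calls rest on 2 clones per group, and the shallow knockout clone 66 library with 4-OHT limits genes with few reads. Over the alternatives, the 17 WT calls were kept in 155 results and lost in 49, and the 22 knockout calls were kept in 206 and lost in 58. No call of a member became a call in the other direction in any alternative. Fold changes near 0 could change sign, as the eEF median in knockout clones did under median-ratio scaling. EIF1, EIF4A1, EIF4E, EIF4EBP1 and EIF5A passed in 12 of 12 alternatives in both genotypes. In WT clones the count of 17 members became 7 to 10 on leaving out 1 WT library, 13 with the clone as a replicate block, and 26 with limma-voom and that block. In knockout clones the count of 22 became 11 when the fit held the 4 knockout libraries alone, 20 with the block, and 8 to 28 on leaving out 1 library, 8 without clone 66 lacking 4-OHT and 28 without clone 69 with 4-OHT. Leaving out 1 library leaves a lone sample that is assumed to vary like the other groups. A pseudocount of 0.1 ended the WT calls of EIF2B3 and EIF5A2, having no read filter ended those and EEF1E1, and either ended that of EIF1AY in knockout clones. Between genotypes, 1 member (EEF1A2) was called without 4-OHT by limma-voom and 1 (EEF1A2) with all 8 libraries in the fit. With 4-OHT, EIF1B, EIF4EBP2 and EIF4ENIF1 were called higher and EIF2B2 lower without knockout clone 69, calls that rested on the shallow clone 66. No share of all genes is given here for that fit. No paired analysis was possible because WT and knockout groups share no clone, for the comparisons of genotypes. The difference of responses had 0 called members in all alternatives, the replicate block included. With a pseudocount of 0.1 the WT medians became 0.94 for eIF2, 0.93 for eIF2B and 0.51 for eIF4, and the knockout median of eIF4 became 0.53. Median-ratio scaling gave 0.40 for eIF3 in WT clones, and 0.44 for eIF2, 0.34 for eIF3 and -0.20 for eEF in knockout clones, the last of these on the other side of 0. It also gave 0.08 for eIF4 and -0.18 for eEF in WT clones, and 0.13 for eIF4 and 0.41 for eIF2B in knockout clones. No medians of all genes under these settings are given here, so these shifts cannot be read as changes of the members. The cause of these changes was not tested.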
